A study of Homo sapiens with 6 samples.

Results

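Neurotransmitter receptor genes were followed in Y79 cells, an established human retinoblastoma line that grows in suspension, during arginine deprivation. The genes were those for the subunits of ionotropic glutamate receptors (GRIA, GRIK, GRIN and GRID), metabotropic glutamate receptors (GRM), GABA-A, GABA-rho and GABA-B receptors (GABR and GABBR), glycine receptors (GLRA and GLRB) and nicotinic acetylcholine receptors (CHRN). They were chosen by symbol and by protein-coding biotype, by a rule that uses no measured value, and numbered 68 of the 63140 gene IDs in the count table. Messenger RNA was sequenced from 3 control libraries of Y79 cells in complete medium and from 3 libraries of Y79 cells exposed for 72 h to recombinant human arginase (rhArg), an enzyme that breaks down the arginine of the medium, at 2 U/mL. Both groups were the same parental line without any genetic change named in the labels. The comparison asks how the cells' gene expression responded to loss of arginine from the medium. The libraries held between 12580622 and 13747351 fragments assigned to genes, so that depth was similar in both groups and a count of 0 allows up to 3 counts, or 0.218 to 0.238 CPM (counts scaled to library size) depending on the library. Since no source states that replicate libraries were grown as independent cultures, the p-values cover the variation among these 6 libraries alone, and this variation may be technical.

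Ligand-gated receptors are pentamers or tetramers of subunits coded by separate genes, and the subunits that a cell transcribes set which receptors it could assemble. AMPA, kainate and NMDA receptors are cation channels opened by glutamate, and NMDA receptors need the GRIN1 subunit together with GRIN2 or GRIN3 subunits. GABA-A and glycine receptors are chloride channels, and nicotinic receptors are cation channels opened by acetylcholine. The metabotropic glutamate and GABA-B receptors act through G proteins. In the retina, photoreceptors release glutamate, ON bipolar cells read it through the metabotropic receptor GRM6, and amacrine and horizontal cells use GABA, glycine and acetylcholine. Retinoblastoma is a tumour of the developing retina whose cells carry many features of cone precursors.

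The cell line expressed the genes of that lineage. Of 14 photoreceptor and retinoblastoma markers, 13 passed the filter on low counts, with 2 higher (CRX and RORB) and 9 lower under rhArg, among them NRL, NEUROD1 and RXRG. For comparison, 61.7% of all 15221 genes tested passed in the edgeR test used throughout, 30.7% higher and 30.9% lower, and the counts of called markers are to be read against these shares. Their summed normalized counts ranged from 40695 to 44000 in the controls and from 32584 to 32907 under rhArg. Markers of other retinal cells also moved. The summed bipolar cell list (4 of 8 tested, 3 higher) ranged from 392 to 469 in the controls and from 1386 to 1454 under rhArg, while TRPM1 had 0 to 2 counts and ISL1 was at 0. The amacrine and horizontal cell list (5 of 9 tested, 2 higher and 2 lower) ranged from 2501 to 2918 and from 4966 to 5205, with LHX1 and C1QL2 at 0. Of this list SLC6A9 alone went from a mean of 495 to 2903, while ONECUT2 was at 2100 and 2088 and PROX1 and TFAP2A fell. The ganglion cell list (5 of 8 tested, 1 higher and 3 lower) ranged from 3283 to 4179 and from 3959 to 4197, with RBPMS2 and SNCG near 0. This sum covers opposite changes. THY1 rose from a mean of 884 to 2111, while POU4F1 (244 to 100), POU4F2 (320 to 82.0) and NEFH (2234 to 1710) fell. The Müller glia list (2 of 7 tested, both higher) ranged from 163 to 194 and from 384 to 486, with RLBP1, AQP4, CRYM and SOX9 at 0 in all libraries. Of the blood and microglia list CD74 was the only one of 6 genes tested and was higher (summed list 1.96 to 12.9 against 13.96 to 21.95), with C1QB and HBB at 0, and of the pigment epithelium list BEST1 was the only one of 5 tested and was higher (5.39 to 10.9 against 110 to 133), with LRAT at 0. Of the exon bases of BEST1 14.6% lie in another gene, with FTH1 the largest overlap. In bulk RNA, fewer cells of a type and less RNA per cell cannot be told apart, and the part of these marker changes in the receptor results was not tested.

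Of the 68 receptor genes, 29 had enough counts to be tested. Under rhArg 7 of them rose and 12 fell in the quasi-likelihood test of edgeR, at an adjusted p under 0.05 over all 15221 genes tested (n = 3 libraries per group). This was 19 of 29 genes (65.5%), near the 61.7% of all genes tested that passed in either direction, 30.7% of them higher and 30.9% lower. With an absolute log2 fold change over 1 as a further condition, 3 receptor genes rose (GRIK4, GRIN2C and CHRNA10) and 9 fell (CHRNA1, GABRQ, GRIN2D, GLRA3, CHRNA9, GABRA5, CHRND, GABRD and GRM4), beside a background of 12.4% higher and 11% lower and 23.4% in either direction. The median log2 fold change of the 29 genes was -0.35, and that of all genes tested was -0.0050. No GABA or glycine receptor gene was among those that rose, where 4 of 6 tested fell, whereas the nicotinic, NMDA and kainate families held genes that moved in both directions. The difference between families was not tested.

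**Figure D1:**
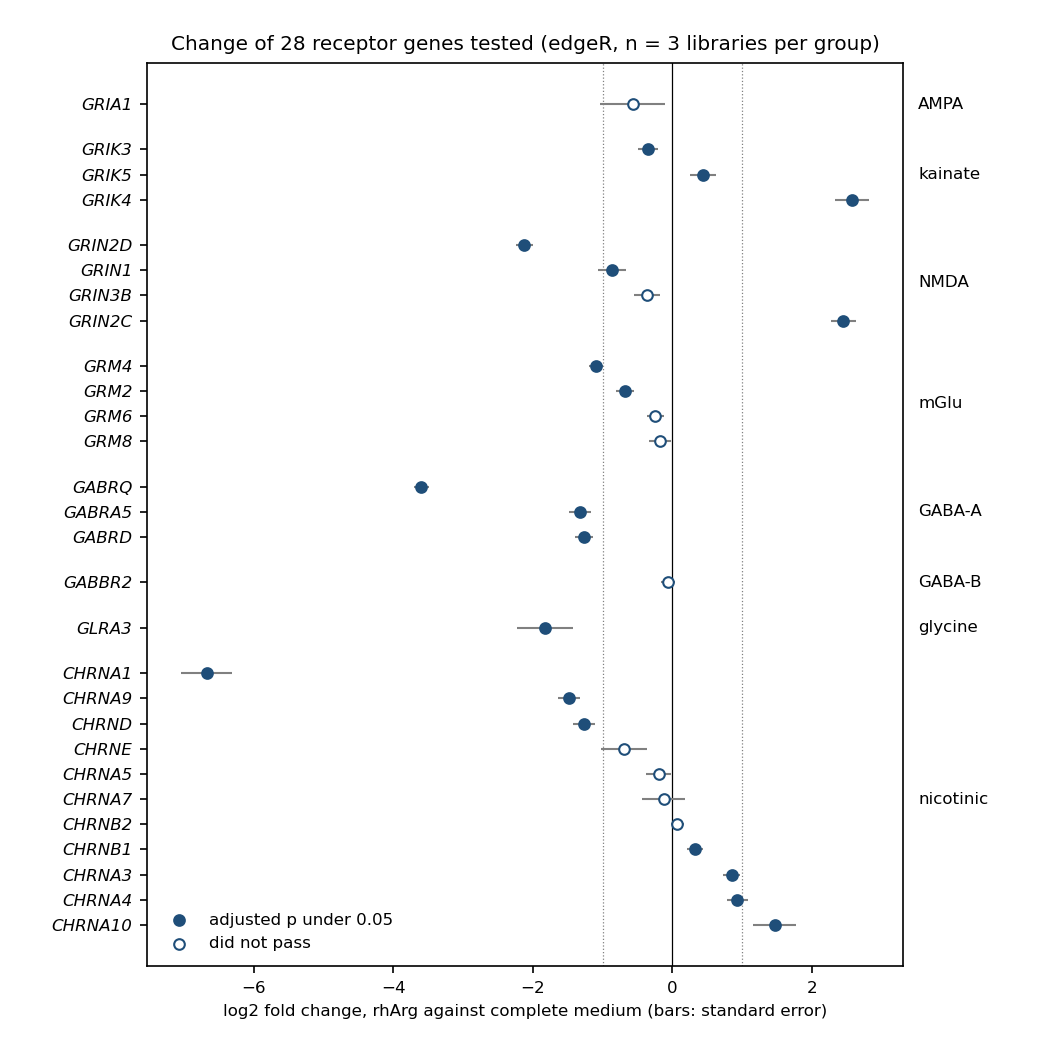
Log2 fold change (rhArg against complete medium) of 28 receptor genes tested, grouped by family, with bars for the standard error from edgeR and dotted lines at -1 and 1. Filled points had an adjusted p under 0.05. The GABA and glycine receptor genes plotted lie left of 0, CHRNA1 lies farthest left at -6.68 and GRIK4 farthest right at 2.58.

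Levels of different genes were compared per length, in FPKM (fragments per kilobase of merged exon, scaled to library size), a scale that understates genes with long, rarely used exons. Over the 6 libraries high mean levels were found for CHRNB2 at 18.7 FPKM, GRM6 at 17.2 FPKM, GABRQ at 12.2 FPKM and GRIK3 at 8.67 FPKM. CHRNB2 thus lay above 84.1% of all genes tested. The lowest levels among the tested receptor genes were those of GRIA1 at 0.131 FPKM, CHRNA7 at 0.135 FPKM and GLRA3 at 0.162 FPKM. At least 1 family member at several FPKM was therefore found for the kainate, NMDA, metabotropic, GABA-A, GABA-B and nicotinic receptors, and none for the AMPA, delta, rho and glycine receptors.

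The sequence before the RefSeq start is shown so that the letters searched can be seen. It is given for 3 of the 9 receptor genes that fell by more than 1 on the log2 scale. Of these, GRM4 is shown for a motif found in its window and not for the size of its change. The 250 bases before the RefSeq start (GRCh38.p14) are given 5′ to 3′ on the gene's strand for GABRQ and GRIN2D. The GABRQ window is chrX:152637645-152637894 (plus strand), with 73.2% G and C and 20 CpG pairs. The GRIN2D window is chr19:48393418-48393667 (plus strand), with 63.6% G and C and 5 CpG pairs. Among the genes tested the median was 65.6% G and C over the 10748 with a promoter in the table.
GABRQ: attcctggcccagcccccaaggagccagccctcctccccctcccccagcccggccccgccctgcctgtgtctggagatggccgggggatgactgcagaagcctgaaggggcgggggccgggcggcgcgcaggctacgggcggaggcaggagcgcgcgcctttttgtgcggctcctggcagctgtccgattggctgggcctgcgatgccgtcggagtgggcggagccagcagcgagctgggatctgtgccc
GRIN2D: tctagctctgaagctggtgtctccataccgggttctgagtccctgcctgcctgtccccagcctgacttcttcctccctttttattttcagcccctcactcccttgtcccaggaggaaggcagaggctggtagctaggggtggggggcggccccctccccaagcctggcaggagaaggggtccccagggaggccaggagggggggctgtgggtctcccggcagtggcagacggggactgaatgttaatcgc
Each promoter window was searched on both strands for TGATGNAA, a core of C/EBP and ATF composite elements bound by ATF4, for TGACGTCA, the full cyclic AMP response element, and for CACGTG, the E-box bound by MYC and related factors. Of the 29 tested receptor genes 22 had an entry. The first motif was in 0 of the 22 windows, in 3.19% of all 27305 promoters and in 1.29% of the 10748 promoters of tested genes. The second was in 0 of the 22, in 1.77% of all promoters and in 2.93% of those of tested genes. CACGTG was in 2 of the 22, CHRNA7 and GRM4, and was in 6.49% of all promoters and in 8.98% of those of tested genes. GRM4 fell by 1.09, the smallest change of the 9 genes that fell past 2-fold. CHRNA7, the other gene with the motif, did not pass (edgeR adjusted p = 0.744). For GRM4 the bases around the motif are printed with CACGTG in capitals. They lie on chr6:34146139-34146184 (minus strand) at positions -97 to -52 relative to the RefSeq start. The gene as counted reaches to 34155622, so these bases lie inside it and not before its outermost start.
GRM4: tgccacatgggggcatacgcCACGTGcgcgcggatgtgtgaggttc
These matches describe the letters of the windows only.

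The NMDA receptor family showed an exchange in the transcripts of its GRIN2 subunits. GRIN2D (ENSG00000105464, GRCh38 chr19:48393668-48444931, plus strand) codes for a subunit known from immature and interneuron receptors with slow deactivation. It had 541, 581 and 643 counts in the control libraries and 135, 136 and 146 counts in the rhArg libraries. Every control library was far above every rhArg library, and the gene fell by 2.12 on the log2 scale (standard error 0.12, edgeR adjusted p = 6.55e-10). GRIN2C (ENSG00000161509, chr17:74842023-74861504, minus strand) codes for the related subunit best known from cerebellar granule cells. It moved the other way, from 56, 88 and 106 counts in the controls to 507, 482 and 421 counts under rhArg. Again the groups did not overlap, and the log2 fold change was 2.45 (standard error 0.18, edgeR adjusted p = 1.46e-08). Per length, GRIN2D stood at 15.0, 10.3 and 9.45 times GRIN2C in the control libraries and at 0.415, 0.439 and 0.540 times GRIN2C under rhArg, so that their order turned in every library. The pair was picked out because its members moved in opposite directions, and the ratio was not tested.

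GRIN1, the subunit that every NMDA receptor contains, had 100, 163 and 160 counts in the controls and 82, 83 and 75 under rhArg. The groups did not overlap and the gene fell by 0.86 (standard error 0.20, edgeR adjusted p = 0.00161). GRIN3B, which codes for a glycine-binding subunit, had the highest mean level per length of the family over the 6 libraries, with 7.49 FPKM against 8.22 FPKM for GRIN2D in the controls and 5.82 against 1.89 FPKM under rhArg. Its counts were 219, 394 and 337 in the controls and 254, 283 and 227 under rhArg, which overlapped, and its log2 change of -0.36 (standard error 0.19) did not pass with an edgeR adjusted p of 0.105. Without control replicate 1 it was -0.59 and passed (adjusted p = 0.00157). The summed level of the family was 17.5 ± 3.50 FPKM in the controls and 12.4 ± 1.12 FPKM under rhArg (SD, n = 3 each), and the lowest control library (13.6 FPKM) lay just above the highest rhArg library (13.2 FPKM). Within that sum the share of GRIN2D was 47.9% ± 6.12 and then 15.4% ± 1.82, and the share of GRIN2C was 4.23% ± 0.711 and then 33.1% ± 1.63, while that of GRIN1 was 5.59% ± 0.505 and then 4.39% ± 0.0889. GRIN2A, GRIN2B and GRIN3A had at most 4 counts in any library and were not tested.

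Among the GABA-A receptor genes 4 of 16 had enough counts, and 3 of these fell, beside 30.9% lower among all genes tested. GABRQ (ENSG00000268089, chrX:152637895-152657542, plus strand) codes for the theta subunit, which is found mainly in the hypothalamus and in monoaminergic neurons. It had 1766, 1750 and 2160 counts in the controls and 155, 152 and 175 counts under rhArg. It had been the most highly expressed GABA-A gene per length, at 22.5 ± 2.13 FPKM, and went to 1.86 ± 0.107 FPKM (SD, n = 3 each), and its log2 change was -3.60 (standard error 0.11, edgeR adjusted p = 2.31e-12), or 12.1 times lower. GABRD codes for the delta subunit of receptors outside synapses. It had 613, 532 and 505 counts in the controls and 205, 280 and 221 counts under rhArg, and fell by 1.27 (standard error 0.13, adjusted p = 7.19e-07). GABRA5 (ENSG00000186297, chr15:26866911-26949208, plus strand), the alpha-5 subunit that also forms receptors outside synapses, had 514, 393 and 434 counts in the controls and 138, 225 and 188 counts under rhArg. It fell by 1.32 (standard error 0.16, adjusted p = 2.37e-06), and for both genes the groups did not overlap.

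The summed GABA-A level was 54.8, 51.5 and 54.9 FPKM in the controls and 20.7, 23.0 and 23.9 FPKM under rhArg, without overlap, and was not tested. GABRQ made up 41.9% ± 3.92 of that sum in the controls and 8.27% ± 0.511 under rhArg, while GABRA5 made up 17.7% ± 1.70 and 16.8% ± 3.37 and GABRD 14.3% ± 1.67 and 14.2% ± 2.28. The shares of GABRA5 and GABRD overlapped between the groups, and those of GABRQ did not.

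Several other GABA-A genes were close to or at 0. GABRA3, GABRA4, GABRE and GABRP had no count in any library, and GABRA2, GABRA6, GABRB1, GABRB2, GABRG1 and GABRG3 had at most 4. Common synaptic GABA-A receptors contain a gamma subunit, the kind of subunit that the GABRG genes code for. GABRG3 is the direct neighbour of GABRA5, 22.0 kb away. The rho genes, whose receptors carry slow GABA currents in bipolar cells, had no count for GABRR1, 1 to 5 counts for GABRR2 and 0 to 7 counts for GABRR3.

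The GABA-B receptor is a pair of GABBR1, which binds GABA, and GABBR2, which couples to the G protein. GABBR2 had 600, 508 and 579 counts in the controls and 509, 612 and 539 under rhArg, and its log2 change of -0.062 (standard error 0.10, edgeR adjusted p = 0.630) did not pass. GABBR1 had only 2, 10 and 3 counts in the controls and 1, 20 and 4 under rhArg. It lies in the major histocompatibility region (GRCh38 chr6:29555629-29633976), where nearly every gene was close to 0 in this table, a check made after its values were seen. Of 153 protein-coding genes between 29000000 and 33000000 on chromosome 6, 13 (8.50%) had enough counts to be tested, against 499 of 885 (56.4%) on the rest of the chromosome, and 0 against 117 had a mean over 1000 counts. TUBB, a tubulin gene that most cells express strongly, had 13 to 30 counts there. The counts of GABBR1 can therefore not be read as a low level of its transcript, and the cause of the low counts in the region was not tested.

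Of the glycine receptor genes, GLRA3, the alpha-3 subunit found in retina and spinal cord, had 29, 32 and 33 counts in the controls and 2, 12 and 13 counts under rhArg. The groups did not overlap, and the gene fell by 1.83 (standard error 0.40, edgeR adjusted p = 0.000888). At these counts the ratio of the summed counts scaled to depth was 3.58, with a 95% counting interval from 2.31 to 5.72. GLRB, the beta subunit that anchors synaptic glycine receptors, had 4 to 16 counts and was not tested. GLRA2 had 1 count in all, and GLRA1 and GLRA4 had none, but 18.1% and 100% of their exon bases lie in another gene, so that a count of 0 for GLRA4 says nothing of its level.

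Metabotropic glutamate receptors were represented by the group III genes GRM4, GRM6 and GRM8 and by GRM2 of group II, all of which couple to inhibitory G proteins. GRM4 (ENSG00000124493, chr6:34018643-34155622, minus strand) had 663, 640 and 640 counts in the controls and 311, 320 and 307 under rhArg. It fell by 1.09 (standard error 0.10, edgeR adjusted p = 1.73e-07), and its libraries were tightly grouped. GRM2, a presynaptic receptor in many neurons, had 473, 625 and 675 counts in the controls and 373, 377 and 393 under rhArg. It fell by 0.68 (standard error 0.13, adjusted p = 0.000278), without overlap.

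GRM6, the receptor by which ON bipolar cells sense glutamate, was the most highly expressed metabotropic gene. Its counts of 1617, 2092 and 2301 in the controls and 1707, 1824 and 1697 under rhArg overlapped. Its log2 change of -0.24 (standard error 0.12, edgeR adjusted p = 0.0877) did not pass, but it was -0.40 and passed without control replicate 1 (adjusted p = 0.000711). TRPM1, the channel that GRM6 controls in ON bipolar cells, had 0 counts in the 3 controls and 2, 0 and 1 under rhArg. GRM8 gave a log2 change of -0.18 (standard error 0.16), which did not pass. GRM6 held 63.1% ± 1.91 of the summed metabotropic level in the controls and 70.3% ± 1.21 under rhArg. GRM3 and GRM7 had at most 1 count in any library and GRM5 had none, with 18.9% of the exon bases of GRM3 and 50.2% of those of GRM5 in another gene.

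All 3 tested kainate receptor genes passed, beside 61.7% of all genes tested. No other family of more than 1 tested gene passed as a whole. GRIK4 (ENSG00000149403, chr11:120511746-120988906, plus strand), a high-affinity subunit that needs GRIK1, GRIK2 or GRIK3 to form a channel, had 22, 11 and 16 counts in the controls and 99, 108 and 95 counts under rhArg. It rose by 2.58 (standard error 0.24, edgeR adjusted p = 1.72e-07), or 5.97 times, without overlap. GRIK3, the main kainate gene of these cells at 8.67 FPKM, had 1118, 1441 and 1401 counts in the controls and 1069, 1268 and 864 under rhArg. These overlapped, and its fall of 0.35 (standard error 0.14, adjusted p = 0.0433) was lost on leaving out control replicate 2 (-0.25, adjusted p = 0.123), control replicate 3 (-0.35, adjusted p = 0.0955), rhArg replicate 1 (-0.36, adjusted p = 0.0805) or rhArg replicate 3 (-0.21, adjusted p = 0.223). GRIK5, the other high-affinity subunit, had 64, 86 and 92 counts in the controls and 106, 106 and 127 under rhArg. The groups did not overlap, but its rise of 0.44 (standard error 0.18, adjusted p = 0.0480) was lost without control replicate 1 (0.27, adjusted p = 0.178), control replicate 3 (0.50, adjusted p = 0.0571), rhArg replicate 1 (0.48, adjusted p = 0.0715), rhArg replicate 2 (0.48, adjusted p = 0.0689) or rhArg replicate 3 (0.36, adjusted p = 0.164). GRIK4 went from 1.59% ± 0.751 to 10.0% ± 0.733 of the summed kainate level. GRIK1 had 3 to 9 counts and GRIK2 0 to 3 counts, and neither was tested.

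Genes of AMPA receptors, which carry most fast excitation in the brain, had few or no counts. GRIA1 had 29, 6 and 13 counts in the controls and 7, 12 and 14 under rhArg. These overlapped, and the log2 change was -0.57 (standard error 0.47, edgeR adjusted p = 0.303), which did not pass and was 0.15 without control replicate 1. GRIA4 had 5, 8 and 5 counts in the controls and 11, 11 and 9 under rhArg, too few for the test. GRIA2, whose edited subunit makes AMPA receptors impermeable to calcium, and GRIA3 had no count in any library. The delta receptor gene GRID1, with 0 to 5 counts, was not tested.

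Nicotinic receptor genes were the most numerous, with 11 of 16 tested, of which 4 rose and 3 fell. That is 63.6% called, beside 61.7% of all genes tested. CHRNA1 (ENSG00000138435, chr2:174747592-174787935, minus strand), the alpha subunit of the muscle receptor, changed most of all receptor genes. It had 179, 161 and 195 counts in the controls and 4, 0 and 1 counts under rhArg. The summed counts scaled to depth were 110 times lower (95% counting interval 46.9 to 340), and the log2 change by edgeR was -6.68 (standard error 0.37, adjusted p = 5.08e-10), which was -8.20 without rhArg replicate 1. CHRND (ENSG00000135902, chr2:232525993-232536667, plus strand), the delta subunit of the same receptor, had 260, 235 and 221 counts in the controls and 82, 117 and 107 under rhArg. It fell by 1.27 (standard error 0.16, adjusted p = 4.97e-06), without overlap. The muscle beta subunit gene CHRNB1 did not fall with them, and had 281, 263 and 265 counts in the controls and 323, 376 and 343 under rhArg. Its log2 change of 0.32 (standard error 0.12) passed with an adjusted p of 0.0247, which was lost without control replicate 3 (0.27, adjusted p = 0.104) or rhArg replicate 2 (0.26, adjusted p = 0.134), and 14.5% of its exon bases lie in another gene.

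The remaining muscle subunits were low. CHRNE, the adult epsilon subunit, had 33, 14 and 21 counts in the controls and 14, 14 and 15 under rhArg, and its log2 change of -0.69 (standard error 0.34, edgeR adjusted p = 0.0852) did not pass, but it was -0.93 and passed without control replicate 2 (adjusted p = 0.0315). Of the exon bases of CHRNE 59.6% lie in another gene, with C17orf107 the largest overlap, so reads of these genes are uncertain. CHRNG, the fetal gamma subunit gene 3.02 kb from CHRND, had 1 count in 1 library of each group. Of its exon bases 66.9% lie in another gene, with TIGD1 the largest overlap, so a low count there is uncertain as well. RAPSN, which clusters the muscle receptor, had 0 to 4 counts.

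The alpha-9 and alpha-10 subunits, which form the receptor of cochlear hair cells together, moved in opposite directions. CHRNA9 (ENSG00000174343, chr4:40335333-40355217, plus strand) had 214, 190 and 197 counts in the controls and 71, 66 and 85 under rhArg, and fell by 1.48 (standard error 0.16, edgeR adjusted p = 6.77e-07). CHRNA10 had 10, 19 and 26 counts in the controls and 64, 46 and 47 under rhArg, and rose by 1.47 (standard error 0.30, adjusted p = 0.000554). In neither gene did the groups overlap. Per length CHRNA9 stood at 4.87 ± 0.240 FPKM in the controls and 1.75 ± 0.198 FPKM under rhArg, and CHRNA10 at 0.522 ± 0.222 and 1.45 ± 0.295 FPKM (SD, n = 3 each). The receptor as a pair was not measured.

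Among the neuronal subunits, CHRNA3 (ENSG00000080644, chr15:78593052-78621295, minus strand), known from autonomic ganglia, had 228, 196 and 243 counts in the controls and 370, 415 and 452 under rhArg. It rose by 0.85 (standard error 0.12, edgeR adjusted p = 1.38e-05), without overlap. CHRNA4, which with CHRNB2 forms the most common receptor of the brain, had 94, 77 and 103 counts in the controls and 181, 189 and 168 under rhArg, and rose by 0.94 (standard error 0.15, adjusted p = 7.32e-05). CHRNB2, which had the highest level per length of all receptor genes over the 6 libraries but lay below GABRQ and GRM6 in the controls, had 1318, 1451 and 1408 counts in the controls and 1554, 1395 and 1586 under rhArg. These overlapped, and its log2 change of 0.074 (standard error 0.098, adjusted p = 0.529) did not pass. Per length CHRNA4 stood at 0.0326 ± 0.00549 of CHRNB2 in the controls and at 0.0590 ± 0.00741 under rhArg. CHRNA5, the accessory subunit next to CHRNA3 on chromosome 15, gave a log2 change of -0.19 (standard error 0.18, adjusted p = 0.355), and the ratio of CHRNA3 to CHRNA5 per length was 1.32, 1.59 and 1.42 in the controls and 3.20, 2.55 and 3.24 under rhArg. Since 28.4% of the exon bases of CHRNA5 lie in another gene, its level and this ratio are uncertain. CHRNB4, the third gene of that cluster, had 0 to 8 counts.

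CHRNA7, the subunit of the receptor with high calcium permeability, had 43, 24 and 51 counts in the controls and 24, 32 and 55 under rhArg. Its log2 change of -0.12 (standard error 0.31, edgeR adjusted p = 0.744) did not pass and was 0.064 without control replicate 3 and 0.10 without rhArg replicate 1. A near-identical copy, CHRFAM7A, had 1 to 6 counts, and reads that match both were not counted, so the level of CHRNA7 is uncertain. CHRNA2 had 2 to 10 counts, CHRNA6 and CHRNB3 at most 1, and none of them was tested. The summed nicotinic level was 44.5 ± 1.26 FPKM in the controls and 41.3 ± 0.764 FPKM under rhArg, a small difference without overlap of the libraries that was not tested. In that sum CHRNB2 held 41.0% ± 2.75 and 46.6% ± 2.86, CHRNA3 8.07% ± 0.690 and 15.7% ± 1.05, and CHRND 13.2% ± 1.12 and 5.89% ± 0.991.

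The proteins that traffic, anchor and modulate these receptors were taken as a list of 46 genes. Of 37 tested, 14 rose and 13 fell (73.0% called, beside 61.7% of all genes tested). Among those that rose, CACNG5, an auxiliary subunit of AMPA receptors, had 15, 24 and 24 counts in the controls and 150, 137 and 107 under rhArg, and rose by 2.60 on the log2 scale (standard error 0.24, edgeR adjusted p = 1.46e-07). The scaffold GRIP2 rose by 1.44 (standard error 0.14), SHANK2, a scaffold of the postsynaptic density, by 2.11 (standard error 0.29), and GPHN by 0.74 (standard error 0.090). GPHN codes for gephyrin, which anchors glycine and GABA-A receptors, and had 1067, 924 and 972 counts against 1687, 1666 and 1740. Among those that fell, DLG3, the scaffold SAP102 that binds NMDA receptors, had 1920, 1812 and 1869 counts in the controls and 790, 863 and 893 under rhArg, and fell by 1.18 (standard error 0.092, adjusted p = 2.44e-08). CNIH2, which escorts AMPA receptors, fell by 1.50 (standard error 0.16), KCTD12, an auxiliary subunit of GABA-B receptors, by 0.94 (standard error 0.10), and GRIP1 by 0.79 (standard error 0.13). Of the exon bases of GPHN 12.7%, and of those of CNIH2 11.3%, lie in another gene. RIC3, a chaperone of nicotinic receptors, rose by 0.54 (standard error 0.13). GRIP1 and GRIP2, which are close relatives, thus moved in opposite directions, and SHANK3, a relative of SHANK2, gave a log2 change of 0.11 (standard error 0.12) that did not pass.

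Genes that make, load and clear the transmitters formed a list of 22, of which 12 were tested, and 5 rose and 6 fell (91.7% called, beside 61.7% of all genes tested). SLC6A9, the glycine transporter GlyT1, which is also in the amacrine cell list above, had 496, 484 and 482 counts in the controls and 2987, 2928 and 2912 under rhArg, and rose by 2.55 (standard error 0.095, edgeR adjusted p = 8.72e-12). ABAT, which breaks down GABA, had 2, 6 and 2 counts in the controls and 64, 68 and 64 under rhArg, and rose by 4.20 (standard error 0.36, adjusted p = 6.59e-08). GAD1, which makes GABA, gave a log2 change of -0.16 (standard error 0.13, adjusted p = 0.298), while the paralog GAD2, the vesicular transporter SLC32A1 and the uptake carriers SLC6A11 and SLC6A13 had at most 4 counts.

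The genes for acetylcholine handling were split. CHAT, which makes acetylcholine, had 172, 127 and 169 counts in the controls and 27, 36 and 24 under rhArg, and fell by 2.46 (standard error 0.21, edgeR adjusted p = 5.19e-08). SLC18A3, the vesicular carrier that is coded within the CHAT locus, rose from 63, 38 and 56 counts to 144, 159 and 157 counts (a log2 change of 1.51 with a standard error of 0.18, adjusted p = 3.19e-06). No exon base of either lies in another gene. ACHE, which breaks acetylcholine down, had 42, 42 and 61 counts against 249, 218 and 266, and rose by 2.30 (standard error 0.17, adjusted p = 1.82e-08). SRR, which makes the NMDA receptor co-agonist D-serine, rose by 1.10 (standard error 0.18). However, 43.9% of its exon bases lie in another gene, with TSR1 the largest overlap, so its reads are uncertain.

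Glutamate handling moved less. SLC17A7, the vesicular glutamate carrier of photoreceptors, had 5008, 4752 and 5973 counts in the controls and 3922, 3474 and 4446 under rhArg, and fell by 0.45 (standard error 0.10, edgeR adjusted p = 0.00113). GLUL, glutamine synthetase, fell by 0.31 (standard error 0.086). The chloride carriers that set the direction of GABA-A currents both fell, SLC12A2 by 0.61 (standard error 0.11) and SLC12A5 by 0.51 (standard error 0.12). SLC17A6, SLC17A8, SLC6A5, SLC5A7 and BCHE had at most 1 count in any library.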

How the data were processed

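Y79 messenger RNA was sequenced on a DNBSEQ instrument in 3 control and 3 rhArg libraries, and all 6 were used. The authors used SOAPnuke to filter the reads, HISAT2 to align them to hg38 (versions not given in the sources used here) and featureCounts 2.0.1 for counting, per the file headers in pairs, over exons of Ensembl release 112 and without a strand option. Raw counts were deposited, with no normalization. Fragments that match several places or several genes were not counted, which lowers genes with near-identical copies or overlapping exons. Of 63140 gene IDs, 62541 matched a symbol, and the number of columns of per-sample values not used was 0.

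The rule for the receptor genes uses symbols and biotypes only, but it, the other gene lists and the tests were chosen with earlier results of these data known. Protein-coding genes were matched by symbol, and GABRG3-AS1 was left out as an antisense gene. Counts were filtered (filterByExpr, 15221 genes with 99.8% of the counts), scaled by TMM and tested with edgeR 4.0.16 in R 4.3.3 (glmQLFit and glmQLFTest, condition only), with Benjamini-Hochberg adjustment over all genes tested and a threshold of 0.05. A shift shared by the whole transcriptome is removed by TMM and was not measured. The standard error is the log2 fold change divided by the square root of F. Normalized counts are counts scaled to the mean effective library size, and FPKM divides counts by merged exon length and by effective library size. The common dispersion was 0.0110. Replicates of a group differed by more than counting noise, and the controls more than the rhArg libraries. Chi-square divided by its degrees of freedom was 9.77 to 18.2 for pairs of controls and 3.91 to 5.14 for pairs of rhArg libraries. The highest value was that of control replicates 1 and 2. Counting intervals (95%, exact binomial) and floors of 3 counts cover counting error only. The procedure was run on simulated counts with a dispersion shared by all genes and far fewer changed genes than here. No error rate for these data was taken from it. Named genes were, in each family, up to 4 called members with the smallest adjusted p and the member with the highest level per length, and in each other list of receptor partners and transmitter genes up to 4 that rose and 4 that fell, while values per library for CHRNA4, CHRNA7, CHRNA10, CHRNB1 and CHRNE, and the genes SHANK3, GAD1, RIC3, RAPSN, TRPM1, TUBB, SRR, GLUL and the untested genes of the lists, were added after their values were seen. Some members of the gene lists are counted in the totals but are not reported here by name. Promoters were those of RefSeq (GRCh38.p14), and a sequence was printed only for called genes averaging 100 normalized counts or more.

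Alternatives were upper-quartile, RLE or no scaling factors, the filter left out or made stricter (a mean count of 20, with 1 CPM throughout a group), DESeq2 1.42.0, glmTreat with a log2 threshold of 1, the replicate number as a block and each library left out in turn.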

Additional observations from a re-analysis of the deposited data

How the results depend on the processing

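Of 418 values of the receptor genes reported singly under the alternatives, 380 kept their direction and their side of the threshold, 30 no longer passed, 5 passed newly and 3 changed sign. The sign changed only for genes that had not passed: GRIA1 (0.15 without control replicate 1) and CHRNA7 (0.064 without control replicate 3 and 0.100 without rhArg replicate 1). With glmTreat, which asks for a change beyond 2-fold by its construction, 2 receptor genes rose and 4 fell. Of all genes 1045 rose and 843 fell, of the receptor partners 4 and 1, and of the transmitter genes 4 and 1. Over the libraries left out in turn, these genes ranged from -0.94 to 0.15 (GRIA1) and from -0.51 to 0.100 (CHRNA7), 5 to 7 receptor genes rose and 11 to 14 fell, and past 2-fold 3 rose and 9 to 10 fell. Without the filter 5 rose and 14 fell, GRIK5 and CHRNB1 no longer passed, and GRIN3B (adjusted p = 0.0208) and GRM6 (0.0387) did. DESeq2 over all genes with a count gave 5 and 12, and on the filtered genes, an alternative chosen after seeing the data, 6 and 12. Upper-quartile factors ended the call of GRIK3 (adjusted p = 0.0628). Same-numbered libraries did not deviate together throughout (r = -0.159, 0.186 and 0.088 over 10196 genes). Pairs of other numbers gave r from -0.277 to 0.211, so these values cannot show whether the numbers pair the libraries. The fit with the replicate block gave 7 higher and 12 lower receptor genes, as without it. Not every library correlated best with its own number. Receptor genes that did not pass the filter, at most 20 counts in any library, could not be compared at this depth.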
